A study of Mus musculus with 6 samples.

Results

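The genes described here make, bind and break down hyaluronan: the synthases Has1, Has2 and Has3, the matrix proteoglycan Vcan, the receptor Cd44, the matrix-modifying protein Tnfaip6 and the hyaluronidases Hyal1 and Hyal2. A probe set was taken for a gene when the array's annotation named that gene and no other. This gave 18 of the 45037 non-control probe sets and 7 of the 8 genes, out of 18193 genes measured in all. Hyal1 was named on 2 probe sets only together with another gene and has no value here. Vcan had 8 probe sets, Cd44 had 4, Has2 had 2, and Has1, Has3, Tnfaip6 and Hyal2 had 1 each.

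The samples were bone marrow cells of untreated wild-type C57BL/6 adult mice, used fresh. Ebf2-positive cells (3 arrays) and Ebf2-negative cells (3 arrays) were both sorted as CD45-, TER119- and CD31-, surface proteins of leukocytes, red cell precursors and endothelial cells, and differed in the labels by Ebf2 alone, a transcription factor of mesenchymal cells. RNA of 1000 or 2000 cells was amplified in a dual round and measured on Affymetrix MOE430_2 arrays. The labels do not give how Ebf2 was detected, whether animals were pooled or from how many mice the replicates were taken. The p-values cover the spread among these 6 arrays alone, part or all of which may be technical.

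Hyaluronan is a long chain of alternating glucuronic acid and N-acetylglucosamine that synthases in the cell membrane build from UDP-sugars and push out of the cell. In the matrix it carries proteoglycans such as versican, which link proteins hold in place, and TSG-6, the product of Tnfaip6, transfers the heavy chains of inter-alpha-trypsin inhibitor onto it. Cells hold it through CD44, and its breakdown is thought to start at the cell surface with Hyal2 and end in lysosomes with Hyal1 and exoglycosidases. In bone marrow hyaluronan is part of the stromal matrix, and CD44 is carried by many blood-forming cells.

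Signals below are log2 of the RMA intensity, and differences are Ebf2-positive minus Ebf2-negative on that scale. A gene or probe set was called when its adjusted p in limma (Benjamini-Hochberg over all genes, or over all probe sets for single probe sets) was under 0.05. Ebf2 itself averaged 8.33 ± 0.41 in Ebf2-positive cells, against 3.66 ± 0.49 in Ebf2-negative cells (SD, n = 3 each). The Ebf2-negative cells held strong signal of other lineages: the mean of 8 erythroid markers was 4.85 to 5.80 on the Ebf2-positive and 9.99 to 10.16 on the Ebf2-negative arrays, and 8 of 8 were called lower. All 8 fibroblast markers and all 8 pericyte and smooth muscle markers were called higher. List means were 11.85 to 12.25 on the Ebf2-positive and 6.36 to 7.48 on the Ebf2-negative arrays for the fibroblast list. For the pericyte and smooth muscle list they were 10.13 to 10.49 and 4.77 to 5.49 in the same order. Of 8 markers of reticular stroma 0 were called by limma, 0 at an unadjusted p under 0.05, with list means of 7.54 to 9.37 on the Ebf2-positive and 8.36 to 9.68 on the Ebf2-negative arrays. Ebf2-positive replicate 2 stood apart in several lists given below. Ebf2-negative replicate 2 was highest of its group in several lists too, such as endothelial (4.67, 5.83 and 4.50) and reticular stroma (8.42, 9.68 and 8.36). It was lowest of its group in the pan-leukocyte, B lineage and basophil lists. The ratio of 3′ to 5′ actin signal rises as RNA or its amplified copies get shorter. It was 31.4, 14.01 and 27.3 on the Ebf2-positive and 24.2, 15.9 and 19.5 on the Ebf2-negative arrays. In each group it was lowest on replicate 2, and its part in the results was not tested. In such bulk samples a smaller share of cells of a type and less RNA per cell cannot be told apart. Centring the arrays on 27 poly-A control probe sets, a scaling called poly-A centring below, moved every difference by -2.23, so that 304 genes were called higher and 15241 lower, against 1961 and 2469 without it. Centring on the 75th percentile moved the median of all genes by 0.12. Every difference is thus one relative to the bulk of genes measured.

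Of the 7 measured genes, Has1 (-0.65 with poly-A centring), Has2, Vcan and Tnfaip6 were called higher in Ebf2-positive cells, Cd44 was called lower, and Has3 and Hyal2 were not called. Over all genes 10.8% were called higher and 13.6% lower. The median difference of the 7 genes was 1.58, beside 0.07 over all genes. Among the 18 probe sets, 5 were called higher and 2 lower, where 6.39% and 8.76% of all probe sets were. With poly-A centring 2 of the 7 genes, Vcan and Tnfaip6, were called higher and 3, Has3, Cd44 and Hyal2, lower.

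**Figure D1:**
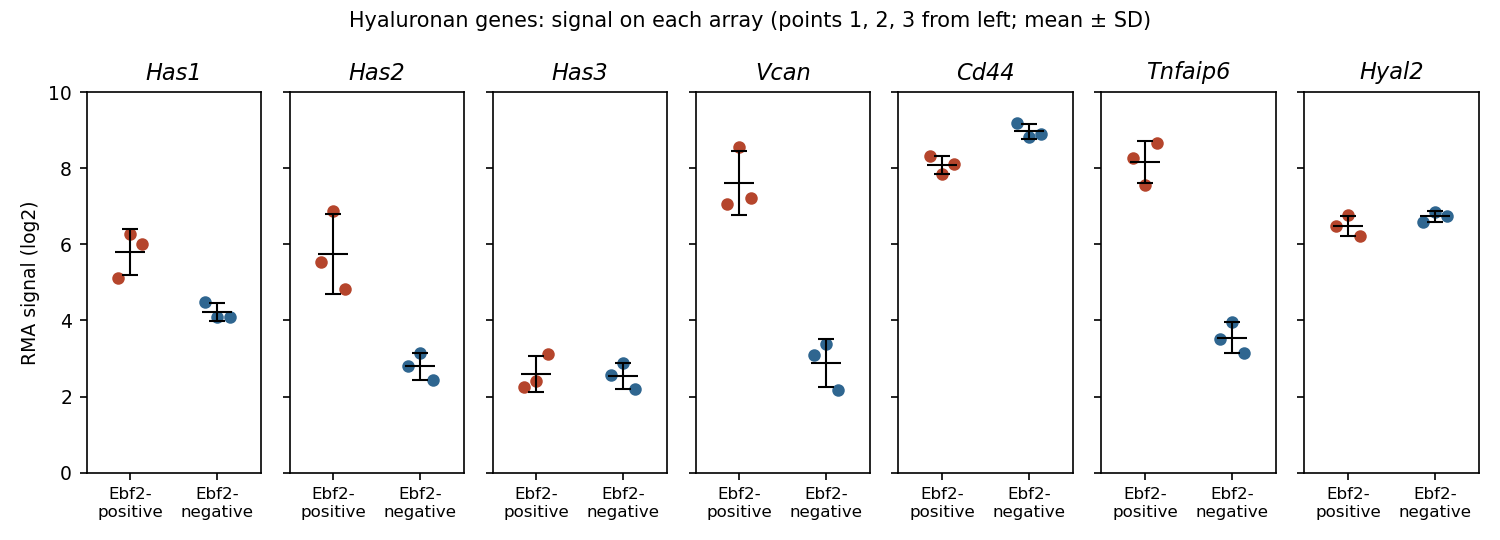
RMA signal (log2) of the 7 measured hyaluronan genes on each array, with Ebf2-positive cells left of Ebf2-negative cells in every panel; points are replicates 1, 2 and 3 from the left and bars are the mean ± SD. The groups do not overlap for Has1, Has2, Vcan, Cd44 and Tnfaip6, while for Has3 and Hyal2 they do; with poly-A centring the difference of Has1 turns to -0.65. The share of all genes whose groups do not overlap was not counted. Levels are to be compared within a panel only.

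Has1 and Has2 rose in the Ebf2-positive cells, Has1 with a change of sign and Has2 with a loss of the call under poly-A centring. Has1, which has the lowest affinity for its sugar substrates of the family, had signals of 5.11, 6.28 and 6.01 on the Ebf2-positive arrays, against 4.48, 4.08 and 4.10 on the Ebf2-negative arrays. All 3 Ebf2-positive arrays lay above all 3 Ebf2-negative ones, and replicate 1 of each group lay closest to the other group. The difference was 1.58 (SE 0.34, 2.98-fold, adjusted p = 0.0179 in limma), although it was -0.65 with poly-A centring (adjusted p = 0.372). Without Ebf2-negative replicate 2 or replicate 3 it kept its size, 1.51 and 1.52, but was no longer called (adjusted p = 0.0628 and 0.0715).

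Has2, the synthase needed for heart development in the mouse embryo, had signals of 5.52, 6.88 and 4.81 on the Ebf2-positive arrays, against 2.81, 3.14 and 2.44 on the Ebf2-negative arrays with probe set 1449169_at. In Ebf2-negative cells this probe set was dim, above only 22.7% to 39.8% of the probe sets on the same array. The groups stood well apart, with a difference of 2.94 (SE 0.53, 7.69-fold, adjusted p = 0.00935 in limma). It became 0.72 with poly-A centring and was then not called (adjusted p = 0.324). The other Has2 probe set, 1418678_at, read 3.76, 3.23 and 5.39 on the Ebf2-positive and 3.19, 2.44 and 2.69 on the Ebf2-negative arrays. Its groups did not overlap either, but its difference of 1.35 was not called (adjusted p = 0.185 over all probe sets). With poly-A centring that difference was -0.87, again not called. The Ebf2-positive replicates were not in the same order in the 2 probe sets: replicate 2 was highest in the first and lowest in the second.

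Has3, the synthase with the shortest product in the family, was dim in both groups, at 2.26, 2.40 and 3.13 on the Ebf2-positive arrays, against 2.57, 2.89 and 2.20 on the Ebf2-negative arrays. The groups overlapped, and the difference of 0.04 had a 95% interval of -0.70 to 0.79 (adjusted p = 0.938 in limma). Its sign changed with quantile normalization or median centring (-0.074 and -0.014), and with poly-A centring it was called lower at -2.18. These signals lay above 12.8% to 38.7% of the probe sets of their arrays in Ebf2-positive cells, against 16.1% to 34.3% in Ebf2-negative cells, where RMA gives no call of presence.

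Vcan and Tnfaip6 had the largest differences of the 7 genes. Vcan encodes versican, a large chondroitin sulphate proteoglycan that binds hyaluronan through its amino-terminal domain. Its probe set 1427256_at read 7.05, 8.56 and 7.21 on the Ebf2-positive arrays, against 3.08, 3.38 and 2.17 on the Ebf2-negative arrays. The lowest Ebf2-positive array stood far above the highest Ebf2-negative one. This probe set was dim on the Ebf2-negative arrays, above only 15.3% to 44.3% of the probe sets there. The difference was 4.73 (SE 0.50, 26.5-fold, adjusted p = 0.00158 in limma), and 2.504 with poly-A centring.

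A further Vcan probe set, 1421694_a_at, read 6.24, 8.75 and 5.12 on the Ebf2-positive and 2.32, 2.52 and 2.65 on the Ebf2-negative arrays. It was called higher too, by 4.21 (SE 0.88, adjusted p = 0.0249 over all probe sets). This call was lost without Ebf2-positive replicate 1 (adjusted p = 0.056) or without Ebf2-negative replicate 1, 2 or 3 (0.0871, 0.0767 and 0.085), while the difference stayed between 3.18 and 4.998 whichever array was left out. The other 6 Vcan probe sets differed by 0.21 to 1.04 and were not called. With poly-A centring they differed by -2.02 to -1.19, and some of them were then called lower. Their mean signals ran from 1.93 to 3.82 in Ebf2-positive cells, against 1.71 to 2.86 in Ebf2-negative cells, so they were dim in both groups. One of them, 1433043_at, read 5.31 on Ebf2-positive replicate 2 but 2.09 and 2.26 on replicates 1 and 3, and 1.999, 2.19 and 2.36 on the Ebf2-negative arrays. The mean of all 8 probe sets gave a Vcan difference of 1.61, still called higher (adjusted p = 0.00795 over all genes).

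**Figure D2:**
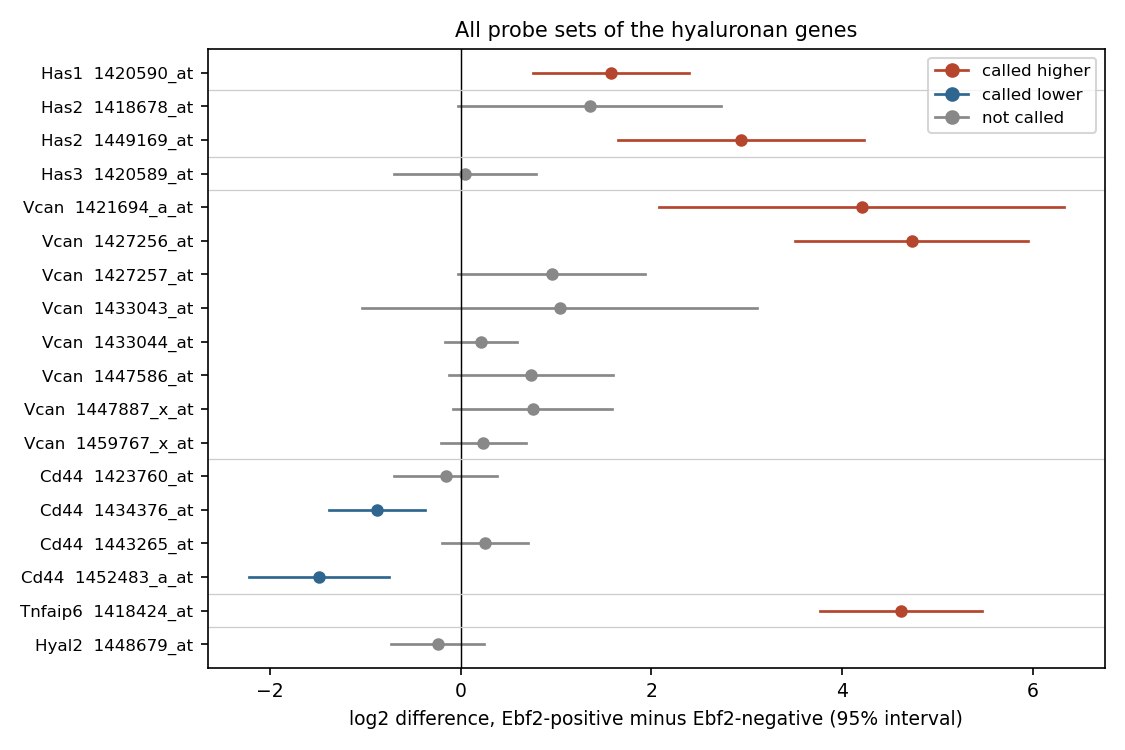
Difference in log2 signal, Ebf2-positive minus Ebf2-negative, for each of the 18 probe sets (rows, grouped by gene), with 95% intervals from limma. Red marks the 5 probe sets called higher, blue the 2 called lower and grey the 11 not called. Of the 8 Vcan probe sets only 1427256_at and 1421694_a_at lie far from 0, and the 2 Cd44 probe sets called lower stand beside 2 near 0. With poly-A centring Has1 (-0.65), Has2 1418678_at (-0.87), Has3 (-2.18), Cd44 1443265_at (-1.97) and the 6 Vcan probe sets not called turn negative.

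Versican is also made by monocytes, and both bright Vcan probe sets were highest on Ebf2-positive replicate 2. Of 8 monocyte and macrophage markers, 8 were measured and 0 were called in either direction by limma, 0 at an unadjusted p under 0.05. Their list mean was 3.96, 5.17 and 3.84 on the Ebf2-positive and 3.86, 4.27 and 4.17 on the Ebf2-negative arrays, also highest on Ebf2-positive replicate 2. This was not particular to monocytes. Among Ebf2-positive arrays the pan-leukocyte, neutrophil, B lineage, megakaryocyte, basophil, endothelial, fibroblast and reticular stroma lists were highest on replicate 2 too. The erythroid and the synovial and cartilage lists were lowest there, and the pericyte and smooth muscle list was highest on replicate 3. Csf1r, the receptor of the macrophage growth factor, read 3.23, 6.20 and 4.001 on the Ebf2-positive and 4.23, 5.48 and 5.19 on the Ebf2-negative arrays. Adgre1, the macrophage antigen F4/80, was dim throughout, at 3.04 to 3.20 on the Ebf2-positive and 2.39 to 2.92 on the Ebf2-negative arrays, and was the 1 marker of the list below the median of all 6 arrays. Without Ebf2-positive replicate 2 the Vcan difference was 4.25 (adjusted p = 0.00239). The part of monocytes was not tested.

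Tnfaip6 encodes TSG-6, a small secreted protein with a hyaluronan-binding link domain that inflammatory signals induce in many cells. Its signal was 8.26, 7.56 and 8.66 on the Ebf2-positive arrays, against 3.50, 3.97 and 3.15 on the Ebf2-negative arrays. Every Ebf2-positive array was bright. The Ebf2-negative signals lay around the medians of their arrays (3.69 to 3.72), above 39.9% to 53.7% of the probe sets. RMA gives no call of presence for such signals. The difference was 4.62 (SE 0.35, 24.6-fold, adjusted p = 0.000568 in limma), and 2.39 with poly-A centring. It lay between 4.37 and 4.92 when any array was left out, and it was called each time. On the Ebf2-positive arrays Tnfaip6 was lowest on replicate 2, where Has2 (by 1449169_at) and Vcan were highest.

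The RefSeq promoter table matched 6 of the 8 genes. The promoters of Tnfaip6, Has1 and Vcan are shown, since these genes were called higher together (Has1 not with poly-A centring). Each sequence is the 250 bases before the annotated start on build GRCm38.p6, written 5′ to 3′ on the gene's strand, at chr2:52037863-52038112 (plus strand), chr17:17855189-17855438 (minus strand) and chr13:89742513-89742762 (minus strand). Capitals mark matches, on either strand, to a set of short motifs that were searched as exact letters.
Tnfaip6: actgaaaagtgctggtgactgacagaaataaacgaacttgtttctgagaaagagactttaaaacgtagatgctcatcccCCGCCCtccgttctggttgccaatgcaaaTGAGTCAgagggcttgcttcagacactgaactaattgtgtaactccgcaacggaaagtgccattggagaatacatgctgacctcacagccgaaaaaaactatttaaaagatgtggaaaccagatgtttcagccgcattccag
Has1: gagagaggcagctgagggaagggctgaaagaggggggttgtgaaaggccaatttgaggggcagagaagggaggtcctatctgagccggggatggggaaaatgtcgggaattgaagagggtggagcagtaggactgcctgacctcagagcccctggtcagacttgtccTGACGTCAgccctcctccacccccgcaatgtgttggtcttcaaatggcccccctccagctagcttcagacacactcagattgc
Vcan: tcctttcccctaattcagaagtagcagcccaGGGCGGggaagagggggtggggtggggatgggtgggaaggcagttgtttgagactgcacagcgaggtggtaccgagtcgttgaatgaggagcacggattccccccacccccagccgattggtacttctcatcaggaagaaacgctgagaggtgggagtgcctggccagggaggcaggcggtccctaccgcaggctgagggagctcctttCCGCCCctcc

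The Tnfaip6 window held the AP-1 motif TGAGTCA at bases 109 to 115, which 4.46% of 32851 promoter windows of this length hold, and a GC box, GGGCGG on the other strand, at bases 80 to 85. The Has1 window held the cAMP response element TGACGTCA at bases 168 to 175, present in 1.55% of windows. The Vcan window held 2 GC boxes, at bases 32 to 37 and 241 to 246, a motif in 32.7% of windows. None of the 3 windows held the EBF motif TCCCNNGGGA (0.779% of windows), TATAAA (12.4%) or the TCF/LEF motif CTTTGAT (3.21%). These are matches of letters in a short window and say nothing of binding in these cells. No motif found was shared by all 3 windows.

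Cd44, the main hyaluronan receptor, was lower by 1 of its bright probe sets and not by another. The probe set taken for the gene, 1434376_at, read 8.31, 7.83 and 8.11 on the Ebf2-positive arrays, against 9.20, 8.81 and 8.89 on the Ebf2-negative arrays. Both groups were bright, and all Ebf2-positive arrays lay below all Ebf2-negative ones. The difference was -0.88 (SE 0.22, 1.84-fold lower, adjusted p = 0.0298 in limma). It no longer passed without Ebf2-positive replicate 2 or 3 (adjusted p = 0.0659 and 0.0621), without Ebf2-negative replicate 1, 2 or 3 (0.0992, 0.0647 and 0.0888), and with quantile normalization or 75th percentile centring (differences of -0.66 and -0.76, adjusted p = 0.0936 and 0.0645).

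Probe set 1423760_at read 7.95, 8.63 and 8.38 on the Ebf2-positive and 8.58, 8.37 and 8.48 on the Ebf2-negative arrays, which overlapped. Its difference of -0.16 had a 95% interval of -0.70 to 0.38 and was not called (adjusted p = 0.689 over all probe sets). Probe set 1452483_a_at read 4.61, 4.05 and 3.72 on the Ebf2-positive and 5.23, 5.90 and 5.73 on the Ebf2-negative arrays. It was called lower by -1.49 (SE 0.30, adjusted p = 0.0227 over all probe sets), a call lost without Ebf2-positive replicate 2 or 3 (0.0559 and 0.0506), without Ebf2-negative replicate 2 or 3 (0.0796 and 0.0911) and with the replicate number as a block (0.0648). The last, 1443265_at, was dim in both groups (0.26, adjusted p = 0.428). The probe sets of Cd44 thus disagreed on size, from -1.49 to 0.26.

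CD44 is carried by most leukocytes and by red cell precursors, which the erythroid list above shows in the Ebf2-negative samples. Of 8 pan-leukocyte markers, 0 were called higher and 3 lower, with list means of 5.73, 6.51 and 5.56 on the Ebf2-positive and 7.73, 7.43 and 8.02 on the Ebf2-negative arrays. Ptprc, the gene of CD45 and a marker that the gate should remove, read 6.68, 6.76 and 3.59 on the Ebf2-positive and 8.78, 7.98 and 8.23 on the Ebf2-negative arrays and was not called (-2.65, adjusted p = 0.0698). The part of such cells in the Cd44 values was not tested.

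Hyal2, the hyaluronidase anchored at the cell surface, was present at like signals in both groups, 6.48, 6.76 and 6.23 on the Ebf2-positive arrays, against 6.59, 6.86 and 6.74 on the Ebf2-negative arrays. The groups overlapped. The difference was -0.24 (SE 0.21, 95% interval -0.75 to 0.27, adjusted p = 0.467 in limma), and it was -2.47 with poly-A centring, then called lower.

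The other genes of the pathway were described through 7 lists of 48 genes, 47 of them measured. In all, 11 were called higher and 3 lower, with a median difference of 0.33 beside 0.07 over all genes. The shares to read these and the following list counts against are the 10.8% of all genes called higher and the 13.6% called lower, and a count of 1 in a list of 7 to 9 genes is near them. With poly-A centring 3 were called higher and 29 lower.

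Enzymes that supply the UDP-sugars were the first of 2 lists with several genes called higher. Of 7 genes, 4 were called higher and 0 lower, and the list's median was 1.73 (-0.49 with poly-A centring). Gfpt2, an isoform of the enzyme that feeds glucosamine into the hexosamine pathway, read 9.82, 9.19 and 9.69 on the Ebf2-positive and 5.05, 4.75 and 5.30 on the Ebf2-negative arrays, a difference of 4.53 (SE 0.26, adjusted p = 0.000322 in limma). Its relative Gfpt1 did not show this (-0.29, adjusted p = 0.51). The difference between the isoforms was not tested.

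Ugdh, which makes UDP-glucuronic acid, read 9.46, 9.998 and 9.56 on the Ebf2-positive and 6.84, 6.34 and 6.36 on the Ebf2-negative arrays (3.16, SE 0.25, adjusted p = 0.000601 in limma). With poly-A centring Ugdh differed by 0.94 and was not called (adjusted p = 0.196). Ugp2, which makes the UDP-glucose it uses, was higher by 2.16, or -0.061 with poly-A centring, and 5 of its 5 probe sets were called higher. Gnpnat1, an acetyltransferase of the hexosamine pathway, was higher by 1.73 (adjusted p = 0.0178), or -0.49 with poly-A centring, with 1 of 4 probe sets called. Its call was lost without Ebf2-negative replicate 1 (adjusted p = 0.0557) and in the mean of its probe sets (1.07, 0.074). Uap1, which makes UDP-N-acetylglucosamine, was bright at 10.64, 10.64 and 9.84 on the Ebf2-positive and 9.89, 8.57 and 8.56 on the Ebf2-negative arrays, and was not called (1.37, adjusted p = 0.0673), although 2 of its 5 probe sets were called higher.

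**Figure D3:**
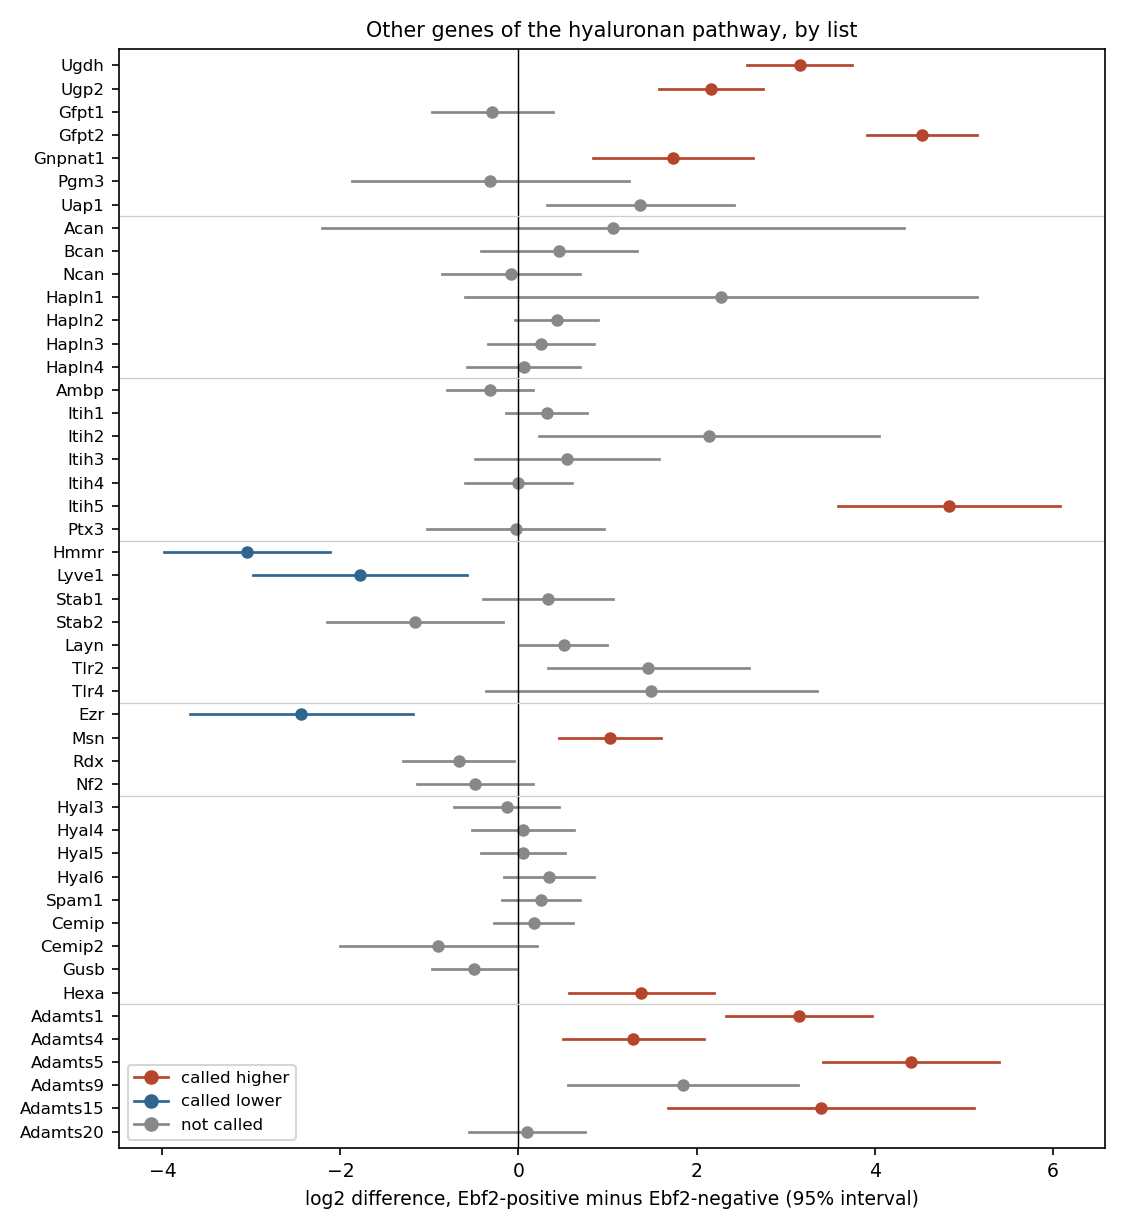
Difference in log2 signal, Ebf2-positive minus Ebf2-negative, for 47 other genes of the hyaluronan pathway with 95% intervals, in list order from the top: UDP-sugar supply, lecticans and link proteins, heavy chain transfer, receptors, CD44 linkers, depolymerising enzymes and versican-cleaving proteases. Red marks the 11 genes called higher, blue the 3 called lower and grey the rest. With poly-A centring every difference moves by -2.23. Among the red genes Ugp2, Gnpnat1, Msn, Hexa and Adamts4 then turn negative, and so do many grey genes.

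Proteases that cut versican were the other such list. Of 6 ADAMTS genes, 4 were called higher and 0 lower, and the list's median was 2.498 (0.27 with poly-A centring). Adamts5, a protease of aggrecan and versican, read 10.04, 10.90 and 10.37 on the Ebf2-positive and 5.88, 6.80 and 5.40 on the Ebf2-negative arrays, a difference of 4.41 (SE 0.41, adjusted p = 0.001 in limma), with 3 of 4 probe sets called higher. Adamts15 differed by 3.40 and Adamts1 by 3.15, and with poly-A centring neither was called (1.17 and 0.92, adjusted p = 0.104 and 0.203). Adamts4 differed by 1.29, or -0.94 with poly-A centring. Adamts4 lost its call without Ebf2-negative replicate 1, 2 or 3 (adjusted p = 0.107, 0.0599 and 0.11) and with the replicate number as a block (0.0542). Adamts9 differed by 1.85 (-0.38 with poly-A centring) and missed the threshold narrowly (adjusted p = 0.0508). It was called higher with quantile normalization (2.03, 0.03), 75th percentile centring (1.97, 0.0312), brighter probe sets only (0.0299), the mean of its probe sets (1.41, 0.0368), trended robust variance (0.046), the replicate number as a block (0.0291) and without Ebf2-negative replicate 2 (2.23, 0.046).

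Among the genes of heavy chain transfer, which TSG-6 carries out, 1 of 7 was called higher and 0 lower. This was Itih5, of the inter-alpha-trypsin inhibitor heavy chain family, at 12.18, 12.19 and 12.60 on the Ebf2-positive and 6.47, 8.58 and 7.42 on the Ebf2-negative arrays (4.83, SE 0.52, 28.5-fold, adjusted p = 0.00166 in limma). Its 3 probe sets each passed in that direction. Itih2 read 3.26, 4.69 and 6.65 on the Ebf2-positive and 2.57, 2.91 and 2.69 on the Ebf2-negative arrays and was not called (2.14, adjusted p = 0.104), except without Ebf2-positive replicate 1 (2.94, 0.0225). Ptx3, a pentraxin that binds TSG-6 in the matrix around the egg, did not differ beyond its spread (-0.03, adjusted p = 0.966). Ambp, Itih1 and Itih4, 3 of the 7, were dim, below the array's median on every array.

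Of the 7 lecticans and link proteins other than versican, 0 were called by limma, 0 at an unadjusted p under 0.05, and the list's median was 0.43 (-1.80 with poly-A centring). Ncan, Hapln2 and Hapln4, 3 of the 7, were dim, below the array's median on every array. Acan, aggrecan of cartilage, read 8.26, 3.56 and 8.79 on the Ebf2-positive and 5.35, 6.68 and 5.40 on the Ebf2-negative arrays (1.06, adjusted p = 0.623). Hapln1, the cartilage link protein, read 7.48, 2.83 and 7.19 on the Ebf2-positive and 3.69, 3.51 and 3.47 on the Ebf2-negative arrays (2.28, adjusted p = 0.229). Both were bright on Ebf2-positive replicates 1 and 3 and below every Ebf2-negative array on replicate 2, the reverse of Vcan, which was highest there. Without that array Acan and Hapln1 were called higher, by 2.71 (adjusted p = 0.0133) and 3.78 (0.000955). The mean of 8 synovial and cartilage markers, Acan among them, was 9.24, 6.45 and 9.40 on the Ebf2-positive and 5.57, 6.62 and 5.61 on the Ebf2-negative arrays. It too was lowest among Ebf2-positive arrays on replicate 2, and 3 of the 8 were called higher. The part of cartilage cells was not tested.

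**Figure D4:**
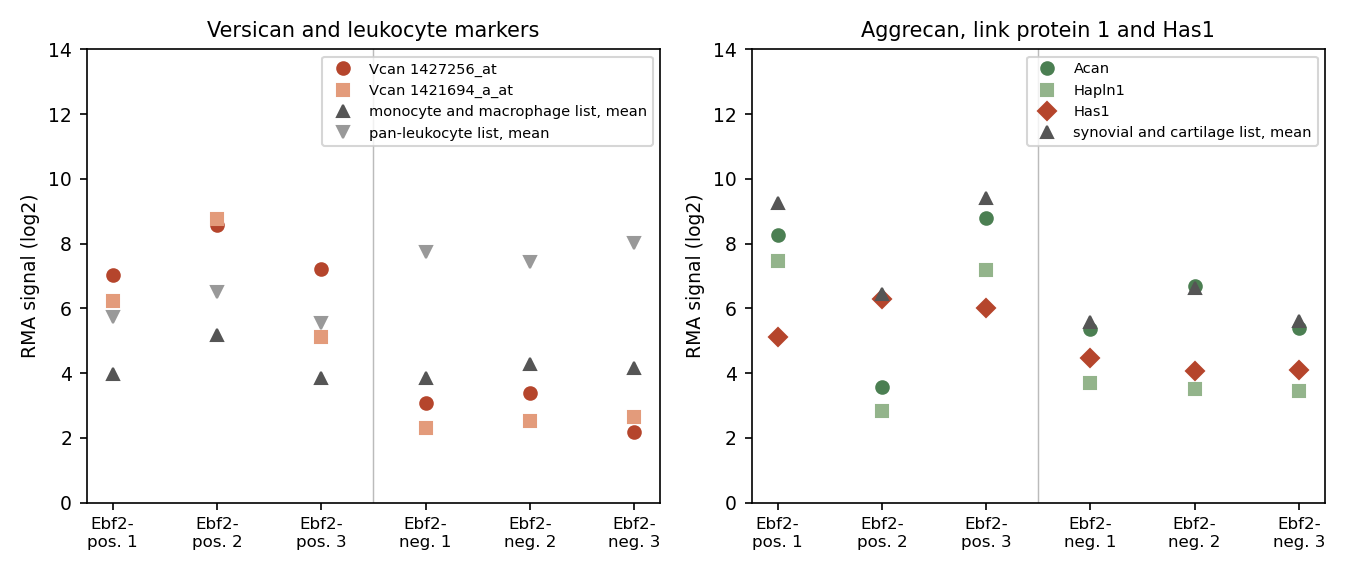
RMA signal (log2) on each array, Ebf2-positive replicates left of Ebf2-negative ones: left, the bright Vcan probe sets with the means of the monocyte and macrophage and pan-leukocyte marker lists; right, Acan, Hapln1, Has1 and the mean of the synovial and cartilage list. Each symbol is to be followed across arrays only: Vcan peaks on Ebf2-positive replicate 2 (8.56 and 8.75), where Acan and Hapln1 are at 3.56 and 2.83; with poly-A centring Has1 turns lower (-0.65).

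Of the 7 other hyaluronan receptors, 0 were called higher and 2 lower. Hmmr, the receptor RHAMM and also a protein of the mitotic spindle, read 5.21, 4.23 and 5.58 on the Ebf2-positive and 8.12, 7.70 and 8.35 on the Ebf2-negative arrays (-3.05, SE 0.39, adjusted p = 0.00284 in limma), with 3 of 5 probe sets called lower. When probe sets ending in _a_at, _s_at or _x_at were left out, it was represented by another one and was not called (-0.61, adjusted p = 0.342). Lyve1, a receptor of lymphatic endothelium and some macrophages, differed by -1.78 (adjusted p = 0.0448). It was dim in Ebf2-positive cells, above only 15.7% to 23.9% of the probe sets on the same array. Its call was lost without any of the Ebf2-positive replicates or without Ebf2-negative replicate 1 or 2 (adjusted p from 0.0886 to 0.143). The same held with array weights (0.127), with the replicate number as a block (0.0556) and without probe sets ending in _a_at, _s_at or _x_at (0.0503). The mean of its probe sets was not called (-0.93, 0.0788), and 0 of its 2 probe sets passed over all probe sets. Tlr4, a receptor that short hyaluronan fragments are reported to engage, read 5.50, 7.91 and 8.47 on the Ebf2-positive and 6.39, 5.64 and 5.37 on the Ebf2-negative arrays and was not called (1.49, adjusted p = 0.223), except without Ebf2-positive replicate 1 (2.39, 0.012).

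Among the 4 proteins that tie CD44 to actin or regulate that tie, 1 was called higher and 1 lower. Ezr, ezrin, read 6.30, 5.61 and 7.69 on the Ebf2-positive and 9.06, 8.71 and 9.15 on the Ebf2-negative arrays (-2.44, SE 0.52, adjusted p = 0.0173 in limma). Msn, moesin, was higher by 1.03 (adjusted p = 0.0231), or -1.20 with poly-A centring. Both calls depended on single arrays: Ezr lost its call without Ebf2-positive replicate 1 (adjusted p = 0.0533) or Ebf2-negative replicate 1 or 3 (0.0632 and 0.0682), and Msn without Ebf2-positive replicate 1 or 2 (0.0576 and 0.0534) or Ebf2-negative replicate 2 or 3 (0.0815 and 0.0926) and in the mean of its probe sets (0.61, 0.136).

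Of 9 measured depolymerising and lysosomal enzymes, 1 was called higher and 0 lower, and the list's median was 0.05 (-2.17 with poly-A centring); it was -0.036 with quantile normalization and -0.004 with median centring. Hexa, a subunit of lysosomal hexosaminidase, was higher by 1.38 (adjusted p = 0.0284), or -0.85 with poly-A centring, and with single arrays left out it was called only when that was Ebf2-positive replicate 1 (adjusted p from 0.0508 to 0.0749 for the other 5). Hyal3, Hyal4, Hyal5, Hyal6 and Spam1, the other hyaluronidase genes, differed by -0.13 to 0.34, and Cemip, a hyaluronan-depolymerising protein of fibroblasts, by 0.17, none of them called. Hyal4, Hyal5, Hyal6, Spam1 and Cemip, 5 of the 9 enzymes, lay below the array's median on every array. For such dim genes the lack of a difference says little. Cemip2, a related cell-surface protein, differed by -0.90 and was not called (adjusted p = 0.221). Gusb, the lysosomal beta-glucuronidase, differed by -0.50 with groups that did not overlap and was not called (adjusted p = 0.121). In the mean of its probe sets it was called lower (-0.70, 0.0185). With poly-A centring 8 of the 9 enzymes were called lower, Gusb among them and Hexa not.

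For each called gene, the genes with the most similar profile over the 6 arrays were found by the root mean square distance between profiles after each gene's mean was taken away. Groups set most of each profile, so likeness here mainly means a similar difference. Has1 was closest to Arhgef6, an exchange factor of Rac (distance 0.13), Nsg1 (0.18) and Olfm2 (0.19). Has2 was closest to Tlcd5 (0.16), Copz2, a coatomer subunit (0.22), and Rnd3 (0.29). Vcan was closest to Pla1a, a phospholipase (0.16), Kcnc2, a potassium channel (0.21), and Angptl1, an angiopoietin-like protein (0.32). Tnfaip6 was closest to Fbln7, a fibulin (0.13), Apcdd1, an inhibitor of Wnt signalling (0.19), and Phldb1 (0.27). Cd44 was closest to Mob3a (0.06), Exosc6 of the RNA exosome (0.08) and Atp5c1 of the ATP synthase (0.10).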

How the data were processed

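Values are those the authors deposited: an intensity for each probe set on each array, made with RMA per the labels' protocols (a method that corrects background, normalizes by quantiles and summarises probes), with a range that fits a linear scale; its version: not given in the sources used here. Log2 was taken here. Of 45101 probe sets, 64 controls were left out; 34945 name 1 gene and 932 several by GEO's annotation of the array. Each of 18193 genes was represented by its probe set with the highest mean. Groups were compared with limma 3.58.1 (lmFit, eBayes) in R 4.3.3, two-sided, with Benjamini-Hochberg adjustment over all genes or, for single probe sets, over all 45037; the fit was tested on simulated data. Precision is limited by having 3 arrays a group. Quantile normalization hides differences in total RNA, and amplification and hybridization make folds of dim genes inexact.

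The members and lists were chosen with earlier results of these data known. Named genes were the members, genes of the sort, up to 4 called genes per list with the largest differences, members of those lists that were not called, and the 3 nearest profiles of each called member (clone identifiers left out); Csf1r and Adgre1 were chosen after their values were seen. Alternatives were further quantile normalization, centring on the median, the 75th percentile or the poly-A controls, leaving out dim or cross-hybridising probe sets, means of probe sets, a trended robust variance, array weights, the replicate number as a block, and leaving out each array. Plots were made in Python 3.11.15 with matplotlib 3.10.9.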

Additional observations from a re-analysis of the deposited data

How the results depend on the processing

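Vcan and Tnfaip6 were called higher under all 16 alternatives, and Has2 under all except poly-A centring. The alternative without dim probe sets kept those with a mean over all 6 arrays above 3.83. The Ebf2-negative means of Vcan, Has2 and Tnfaip6 (2.88, 2.80 and 3.54) lay below that. These genes passed only through their Ebf2-positive signal, so that alternative lends their calls no support. Poly-A centring changed most counts: 15545 genes, 13 of the 18 probe sets and 32 of the 47 other pathway genes were called, most of them lower (10 of the 13 and 29 of the 32). Of the member genes it turned Has1 (-0.65) and Has3 (-2.18) negative. Of the other pathway genes called higher it turned Ugp2 (-0.061), Gnpnat1 (-0.49), Msn (-1.20), Hexa (-0.85) and Adamts4 (-0.94) negative. Many pathway genes that were not called turned negative too. Has3 also turned with quantile normalization (-0.074) and median centring (-0.014), and ran from -0.23 to 0.21 with arrays left out. Leaving out single arrays gave 2690 to 4348 called genes, 3 to 5 called members and 2 to 6 called probe sets, the lowest genes and probe sets without Ebf2-negative replicate 3; fewer arrays are tested then.

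With the replicate block 4 of the 18 probe sets were called, 4 higher and 0 lower, and all 5 member genes remained called. Deviations of arrays with the same number correlated at 0.05, 0.11 and 0.03, which is low, but each array correlated best with its own number. These values do not decide whether the numbers are pairs. The main fit took the arrays as unpaired and may ignore a pairing. The cause of these changes was not tested.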
